A study of Rattus norvegicus with 6 samples.

Results

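Heat shock proteins, DnaJ co-chaperones and chaperonins are the protein-folding machines of the cell. They were taken here by gene symbol, as every symbol that starts with Hspa, Hspb, Hspd, Hspe, Hsph, Hsp90 or Dnaj, the Cct2 to Cct8 series and Tcp1, which gave 83 genes of 30076 named in the tables. RNA came from tissue labelled prefrontal cortex of 6 male F344 rats aged 18 months. In the manipulated group 3 rats (replicates 4, 5 and 6) received cranial osteopathic manipulation, in which an osteopath treats the head by hand, over 7 days under 1.5 to 3% isoflurane, and in the untreated group 3 rats (replicates 1, 2 and 3) were anaesthetised without it. All 6 rats are aged and all had isoflurane, so neither age nor anaesthesia can be read from the comparison, and each rat gave 1 library from a coronal section 1 mm thick. No batch and no pairing of rats is labelled, and the label does not say whether manipulation was given daily.

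HSP70 proteins bind stretches of unfolded protein and release them in cycles of ATP hydrolysis. DnaJ proteins bring clients to HSP70 and trigger that hydrolysis, and HSP110 proteins reset HSP70 by exchanging its nucleotide. HSP90 takes over partly folded clients such as kinases and steroid receptors, small heat shock proteins hold unfolding proteins without ATP, and the chaperonins enclose a protein in a barrel, in mitochondria with HSPD1 and HSPE1 and in the cytosol with TRiC, a ring complex of CCT subunits. In neurons HSPA8 and the DnaJ proteins DNAJC5 and DNAJC6 also serve the recycling of synaptic vesicles. Heat shock factor 1 drives many of these genes in cells under protein stress through repeats of GAA, and ATF6 drives those of the endoplasmic reticulum (ER) through the ER stress element.

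The promoters of the genes show which of them carry those elements, and they are shown because a comparison further on sets the genes with either element side by side. RefSeq promoter windows of the assembly GRCr8, 250 bases before to 50 after the start of a gene, were found by symbol for 67 of the 83 genes, and for 46 of the 55 that were tested. A heat shock element of 3 alternating units, GAANNTTCNNGAA on either strand, lay in 6 of these 67 windows (8.96%), those of Hspa8, Hsph1, Dnaja1, Cct4, Hspd1 and Hspe1, against 0.798% of 33469 promoters of all genes. The ER stress element, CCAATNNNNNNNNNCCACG on either strand, lay in 3 of 67 (4.48%), those of Hspa5, Hsp90b1 and Dnajc3, against 0.0657% of all promoters. The shorter motif GAANNTTC, which is contained in the longer element, lay in 20.9% of the 67 windows and in 8.59% of all. A match describes the letters only. Hspd1 and Hspe1 lie head to head, and 211 bases of their windows are the same sequence, so their match is a single one. The windows below run 5′ to 3′ on the strand of the gene, with the fixed letters of a match in capitals. The whole window of Hspe1 is given because it also holds 211 bases upstream of Hspd1, though not the Hspd1 start. For the others the matches are given with the bases around them.
Hspe1 (chr9:64084077-64084376, + strand): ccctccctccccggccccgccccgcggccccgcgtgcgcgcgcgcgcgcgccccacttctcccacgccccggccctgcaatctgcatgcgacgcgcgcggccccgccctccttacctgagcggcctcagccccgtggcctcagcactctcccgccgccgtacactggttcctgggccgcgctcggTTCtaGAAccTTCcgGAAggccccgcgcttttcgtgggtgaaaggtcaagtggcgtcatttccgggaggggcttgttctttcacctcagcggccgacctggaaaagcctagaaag
Hspa8 (chr8:50080277-50080495, + strand): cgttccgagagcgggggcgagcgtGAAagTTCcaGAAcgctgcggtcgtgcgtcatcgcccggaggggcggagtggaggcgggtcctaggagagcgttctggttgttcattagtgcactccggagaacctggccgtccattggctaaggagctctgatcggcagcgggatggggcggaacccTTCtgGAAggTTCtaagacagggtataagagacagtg
Hsph1 (chr12:10427308-10427368, + strand): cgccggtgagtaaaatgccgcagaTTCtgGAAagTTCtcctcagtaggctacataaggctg
Dnaja1 (chr5:60638389-60638449, + strand): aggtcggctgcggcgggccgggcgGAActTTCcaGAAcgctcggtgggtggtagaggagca
Cct4 (chr14:101193058-101193106, + strand): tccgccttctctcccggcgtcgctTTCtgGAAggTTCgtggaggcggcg
Hspa5 (chr3:38452949-38453015, + strand): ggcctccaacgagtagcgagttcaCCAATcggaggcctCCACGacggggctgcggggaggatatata
Hsp90b1 (chr7:23012323-23012493, - strand): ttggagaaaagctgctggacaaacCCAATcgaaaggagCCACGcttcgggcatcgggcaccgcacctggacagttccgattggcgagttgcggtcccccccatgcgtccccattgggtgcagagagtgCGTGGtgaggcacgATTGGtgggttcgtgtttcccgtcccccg
Dnajc3 (chr15:102432510-102432576, + strand): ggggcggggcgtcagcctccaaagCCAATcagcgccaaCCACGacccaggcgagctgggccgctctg
In the Hspe1 window 2 matches on opposite strands overlap, 60 and 65 bases upstream of the start, which makes a run of 4 units. Hspa8 holds 2 separate matches, 55 and 213 bases upstream. In Hsph1 the match begins 36 bases upstream, while in Dnaja1 and Cct4 it lies just downstream of the start. Hsp90b1 holds the ER stress element 2 times, 72 and 176 bases upstream, and Hspa5 and Dnajc3 hold it 43 and 133 bases upstream.

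**Figure D1:**
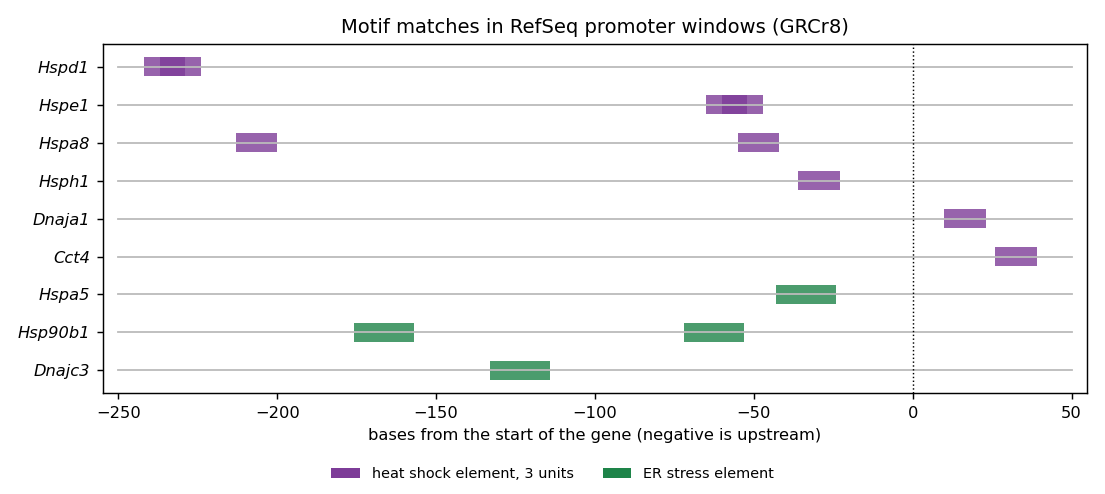
Positions of motif matches in the promoter windows of 9 chaperone genes, in bases from the start of the gene (horizontal axis), with 1 gene per line, 3-unit heat shock elements in purple and ER stress elements in green. The matches of Hspd1 and Hspe1 are the same bases seen from either gene, and Hsp90b1 and Hspa8 each hold 2 separate matches.

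Not every gene could be measured by itself. Of the 83 genes, 14 shared a table row with a neighbouring or overlapping gene in at least 1 library, 4 of them in every library, and 1, Dnajc30, had no row in 2 libraries. That left 68, of which 13 had a mean under 1 FPKM (fragments scaled to transcript length and to the mapped fragments of the library) over the 6 libraries and 55 were tested. No tested gene passed this filter through 1 group alone, since none had a group mean under 1 FPKM. The test was limma on log2(FPKM + 1) over all 10731 genes that passed, with Benjamini-Hochberg adjustment, and each log2 fold change is the mean in manipulated rats less that in untreated rats on this scale. P-values measure the spread between rats, and with bulk tissue fewer cells of a type and less RNA per cell cannot be told apart.

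As deposited, FPKM was lower for most genes of the manipulated libraries. The median log2 fold change over all 10731 tested genes was -0.36, and with median-ratio scaling, which sets the typical gene level between libraries, it was 0.0060. Scaling factors, in order of replicate number, were 0.945, 0.986 and 0.653 for the manipulated group and 1.34, 0.960 and 1.25 for the untreated group. Manipulated replicate 6 stood lowest, and untreated replicate 2 lay within the manipulated range. The number of fragments implied by the deposited intervals was 3.40e+07, 3.40e+07 and 4.29e+07 in the manipulated and 3.84e+07, 3.86e+07 and 3.47e+07 in the untreated libraries. Lists of cell type markers also differed in level between the groups. Thalamic and hypothalamic markers summed to 21.5, 21.4 and 85.9 FPKM in manipulated and 151, 182 and 225 FPKM in untreated rats, with 11 of 11 tested genes lower and 6 of them past the adjusted p. Striatal markers summed to 233, 244 and 96.5 FPKM in manipulated and 63.3, 61.0 and 91.9 FPKM in untreated rats, with 13 of 13 higher and 0 past it, and choroid plexus markers to 241, 1245 and 1007 FPKM against 464, 461 and 470 FPKM. The blood genes Hbb and Alas2 summed to 40.9, 55.7 and 43.2 FPKM in manipulated and 94.8, 94.0 and 113 FPKM in untreated rats. Their scaled sums did not overlap either (43.3 to 66.1 against 70.6 to 97.97). Nearly all of these sums was Hbb, while Alas2 overlapped between groups (0.887 to 1.94 FPKM in manipulated, 1.16 to 2.25 FPKM in untreated rats). Summed levels of neuronal markers (377 to 1026 FPKM in manipulated, 779 to 917 FPKM in untreated rats), oligodendrocyte markers (723 to 1153 against 1053 to 1434 FPKM), microglial markers (42.3 to 64.3 against 62.0 to 85.5 FPKM) and astrocyte markers (302 to 581 against 501 to 748 FPKM) overlapped between the groups. Neurons, astrocytes, oligodendrocytes and microglia were all represented by their markers, alongside thalamic, hypothalamic and striatal genes. The part of these markers in the chaperone values was not tested.

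Most chaperone genes, like most other genes, had lower FPKM in manipulated rats, and none passed the test. At an adjusted p of 0.05 in limma the count was 0 of 55, against 0.363% of all tested genes. The log2 fold change was below 0 in 54 of 55 members and above 0 in 1, against 86.9% and 13.1% of all genes, and its median was -0.48 in the members against -0.36 in all genes. At an unadjusted p under 0.05, 9 members (all lower) passed, against 13.5% of all genes that were lower at this p. Groups did not overlap in 21 members that were lower, against 23.6% of all genes, and in 0 that were higher, against 1.13%. The 21 are 38.2% of the tested members. Without untreated replicate 2 the count was 44, or 80%, against 57.6% of all genes, and without manipulated replicate 5 it was 38, or 69.1%, against 41%. Without manipulated replicate 6 the log2 fold changes of 16 named members lay nearer to 0 by more than 1.5 times, with Hspa8 and Hsph1 each at -0.39, Hsp90ab1 at -0.16 and Dnajc5 at -0.065. In 48 of 55 members the lowest value was that of manipulated replicate 6, and in 49 the highest was that of untreated replicate 1 or 3. The deposited FPKM intervals of single libraries had a half-width whose median over libraries ran from 3.79% of the value in Hsp90ab1 to 39.6% in Hspa12b. In 5 of the 21 (Dnaja1, Dnajc11, Dnajc19, Dnajc6 and Hspa12a) these intervals stayed apart between groups. The share of all tested genes with intervals apart was not computed, so this count cannot be set against it. With scaling, the groups of Dnajc6 alone among these did not overlap. With weights per library, which give manipulated replicate 4 a weight of 6.15 and manipulated replicate 6 one of 0.234, 5 members passed the adjusted p, all lower, against 8.98% of all genes. They were Dnajc19, Dnajc1, Dnajc12, Hspb1 and Hspbp1, with adjusted p from 0.0407 to 0.0483 in limma.

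With median-ratio scaling the median of the members lay close to that of the other genes, at a log2 fold change of -0.07 against 0.0060. Of the 55 members 36 were lower and 19 higher, against 49% and 51% of all genes. The adjusted p was passed by 0 members, against 0.3% of all genes. At an unadjusted p under 0.05 there were 3 lower members, Dnajc12, Dnajc6 and Dnajc7, against 4.35% of all genes, and 1 higher, Dnajc16, against 6.79%. Groups did not overlap in 9 lower members, which is 16.4% of the 55, against 8.93% of all genes. They also did not overlap in 2 higher members of the 55, against 10.7% of all genes. Summed over the 55 tested members, scaled FPKM was 778, 819 and 758 in manipulated and 795, 882 and 843 in untreated rats, and the groups overlapped. As deposited the same sums were 736, 807 and 495 FPKM in manipulated and 1068, 846 and 1052 FPKM in untreated rats. The level of a typical member differed 2.42 times between its highest and lowest library as deposited and 1.47 times after scaling, against 2.40 and 1.64 times for all tested genes, and 29 of the 55 members then lay within 1.5 times over all 6 libraries, where 0 did before.

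**Figure D2:**
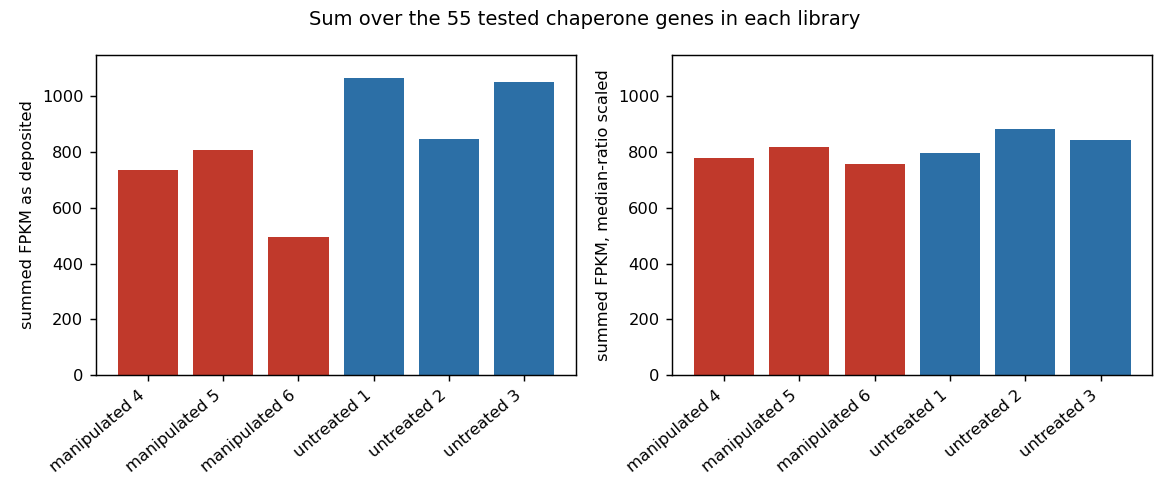
Sum of FPKM over the 55 tested chaperone genes in each of the 6 libraries (bars, manipulated in red, untreated in blue), as deposited (left) and after median-ratio scaling (right). As deposited, manipulated replicate 6 is lowest at 495 and untreated replicate 1 highest at 1068, while the scaled sums run from 758 to 882.

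Hsp90ab1 was the most abundant tested chaperone transcript, followed by the mitochondrial Hspe1 and then Hspa8. Hsp90ab1, the constitutive cytosolic HSP90 (chromosome 9, 17817721 to 17823243, Rnor_6.0), had 117, 132 and 75.4 FPKM in manipulated rats and 152, 121 and 145 FPKM in untreated rats. The highest manipulated value exceeded the lowest untreated one, and the log2 fold change was -0.39 (SE 0.32, limma adjusted p = 0.431), or 0.07 with scaling. Hsp90aa1, the stress-inducible HSP90, shared its row with LOC103692716 in every library, and that row had 84.8, 99.1 and 49.5 FPKM in manipulated and 119, 98.4 and 118 FPKM in untreated rats. Hspa8, the constitutive HSP70 that strips clathrin from vesicles (chromosome 8, 44989287 to 44993451), had 65.2, 69.6 and 40.1 FPKM in manipulated rats and 105, 72.4 and 91.3 FPKM in untreated rats. Its groups did not overlap, by a narrow margin, with a log2 fold change of -0.63 (SE 0.33, limma adjusted p = 0.333). After scaling they still did not overlap, at 69.0, 70.6 and 61.5 in manipulated and 78.4, 75.4 and 73.2 in untreated rats, with a log2 fold change of -0.17 and an adjusted p of 0.591 in limma.

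The inducible cytosolic HSP70 was scarce in both groups. Hspa1b, whose transcript is made in bursts under heat or proteotoxic stress, had 0.369, 0.517 and 0.661 FPKM in manipulated rats and 0.718, 0.498 and 0.513 FPKM in untreated rats, and in manipulated replicate 4 its row was joined with a neighbouring clone-named gene. Hspa1l, a related gene known from the testis, had 0.117 to 0.359 FPKM in manipulated and 0.249 to 0.299 FPKM in untreated rats. Reads of near-identical HSP70 copies could be split in the counting, so these low levels are uncertain. Of the other HSP70 genes, Hspa12a, an atypical member abundant in brain, had 12.4, 11.9 and 7.22 FPKM in manipulated and 18.9, 14.7 and 14.8 FPKM in untreated rats, which did not overlap, but the span of its row differed 2.30 times between libraries. Hspa2 averaged 2.33 ± 0.514 FPKM in manipulated and 2.40 ± 0.243 FPKM in untreated rats (SD, n = 3 each), Hspa13 4.52 ± 1.38 and 5.57 ± 0.986 FPKM, and Hspa12b, an endothelial member, 1.21 ± 0.505 and 1.19 ± 0.280 FPKM. Hspa14 shared its row in 1 library and had 1.81 to 2.95 FPKM in manipulated and 3.56 to 5.27 FPKM in untreated rats.

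**Figure D3:**
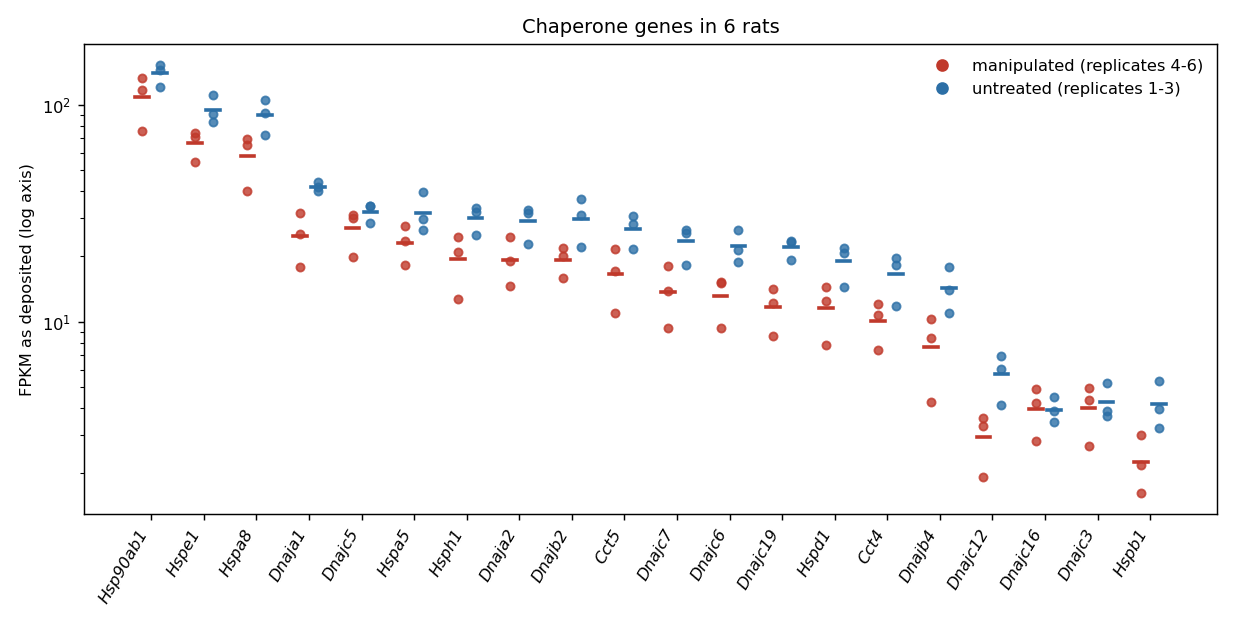
FPKM as deposited (log axis) of 20 chaperone genes in each rat, with manipulated rats in red to the left and untreated rats in blue to the right, and bars at the group means. Hsp90ab1, Hspe1 and Hspa8 are the most abundant, and the groups stand apart for Dnajc19 (8.61 to 14.2 against 19.2 to 23.6 FPKM) and overlap for Dnajc16 and Dnajc3.

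The HSP110 genes encode nucleotide exchange factors of HSP70. Hsph1 (chromosome 12, 6322668 to 6341902) had 20.9, 24.6 and 12.7 FPKM in manipulated rats and 33.4, 25.2 and 32.0 FPKM in untreated rats, and the highest manipulated value lay just under the lowest untreated one. Its log2 fold change was -0.65 (SE 0.32, limma adjusted p = 0.328). Hspa4 averaged 12.2 ± 3.59 FPKM in manipulated and 17.9 ± 2.01 FPKM in untreated rats (SD, n = 3 each), and Hspa4l 8.11 ± 2.44 and 12.4 ± 1.77 FPKM. All 3 tested genes of the class were lower without overlap as deposited, against 23.6% of all genes. With scaling their median was -0.17, with no overlap in Hsph1 and Hspa4l, against 8.93% of all genes that were lower without overlap.

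Both genes of the mitochondrial chaperonin had lower means in manipulated rats, and Hspe1 was the more abundant. Hspe1, the co-chaperonin lid (chromosome 9, 61691355 to 61694599), had 70.8, 74.5 and 54.4 FPKM in manipulated rats and 83.6, 90.3 and 111 FPKM in untreated rats, which did not overlap. Hspd1, the barrel subunit next to it (61680530 to 61690956), had 12.4, 14.4 and 7.80 FPKM in manipulated rats and 20.7, 14.4 and 21.9 FPKM in untreated rats. In Hspd1 manipulated replicate 5 and untreated replicate 2 met. With scaling the order turned. Hspd1 then did not overlap, at 11.9 to 14.6 in manipulated and 15.0 to 17.5 in untreated rats (log2 fold change -0.26). Hspe1 overlapped with scaling, at 74.9 to 83.3 in manipulated and 62.3 to 94.0 in untreated rats (log2 fold change -0.05). The ratio Hspe1/Hspd1 within a library, which no scaling alters, was 5.70, 5.16 and 6.97 in manipulated and 4.04, 6.27 and 5.08 in untreated rats. Hspa9, the mitochondrial HSP70, averaged 11.5 ± 3.69 FPKM in manipulated and 16.1 ± 3.34 FPKM in untreated rats (SD, n = 3 each). The ratio Hspa9/Hspd1 was 1.06, 0.978 and 0.937 in manipulated rats and 0.818, 0.860 and 0.866 in untreated rats, so the groups stood apart.

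TRiC folds actin and tubulin, and each ring holds its different subunits once. Cct5 was the highest of the 5 tested subunits in every library, with 17.1, 21.7 and 11.01 FPKM in manipulated and 28.3, 21.6 and 30.7 FPKM in untreated rats. Within a library the highest of these subunits was 1.60 to 1.87 times the lowest in manipulated and 1.56 to 1.83 times in untreated rats. The mean of the 5 was 13.4, 15.0 and 8.67 FPKM in manipulated and 21.1, 14.5 and 22.8 FPKM in untreated rats. Manipulated replicate 5 exceeded untreated replicate 2, so the groups overlapped. Of all classes with 3 or more tested genes TRiC had the lowest median log2 fold change, -0.65 as deposited and -0.22 with scaling. Cct4 had 10.7, 12.1 and 7.37 FPKM in manipulated and 18.2, 11.9 and 19.7 FPKM in untreated rats, a log2 fold change of -0.66 (SE 0.30, limma adjusted p = 0.326). Cct8 (11.7, 11.6 and 6.90 FPKM in manipulated, 18.3, 11.8 and 18.5 FPKM in untreated rats) was the only tested subunit without overlap as deposited, and Cct4 the only one with scaling. Tcp1, the first subunit, shared its row with a clone-named gene in every library, and that row had 10.9, 10.7 and 6.28 FPKM in manipulated and 18.0, 13.6 and 21.4 FPKM in untreated rats. Among the tested subunits Cct7 lay nearest to 0, with a log2 fold change of -0.49, or -0.05 with scaling.

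The small heat shock genes named Hspb had low levels, while Cryab, which is of the same family by another name, is given below. Hspb1, which holds unfolding proteins and stabilises filaments, had 1.63, 3.00 and 2.18 FPKM in manipulated rats and 5.33, 3.25 and 3.97 FPKM in untreated rats. All manipulated values lay below the untreated ones, with a log2 fold change of -0.67 (SE 0.25, limma adjusted p = 0.322), or -0.31 with scaling, where the groups overlapped. Hspb8, a partner of the autophagy factor BAG3, had 3.47, 3.796 and 2.63 FPKM in manipulated and 4.51, 3.69 and 7.01 FPKM in untreated rats, and its row spanned a longer stretch in untreated replicate 3. Hspb6 shared a row in 1 library and had 4.68 to 6.83 FPKM in manipulated and 5.25 to 6.88 FPKM in untreated rats. Hspb2, Hspb3, Hspb7 and Hspb9 lay below 1 FPKM on average, and Hspb2 reached 1.60 FPKM in untreated replicate 3 alone. Mural cell markers, which mark vessel wall cells that also make small heat shock proteins, summed to 16.7, 18.5 and 9.16 FPKM in manipulated and 24.5, 17.5 and 13.4 FPKM in untreated rats. Rgs5 was the largest part of this sum in most libraries, and it overlapped between groups, as did Acta2, Pdgfrb and Kcnj8. Des (0.425 to 0.532 against 0.753 to 1.51 FPKM) and Cnn1 (0.0959 to 0.130 against 0.237 to 0.671 FPKM) were lower in manipulated rats without overlap, at low levels. The part of these markers was not tested. Of the genes named Hspb that are no small heat shock proteins, the HSP70 exchange factor Hspbp1 averaged 8.56 ± 1.64 and 13.4 ± 3.66 FPKM, the intraflagellar transport gene Hspb11 3.85 ± 0.861 and 6.02 ± 1.90 FPKM, and Hspbap1, whose product binds HSPB1, 1.09 ± 0.203 and 1.53 ± 0.263 FPKM, in manipulated and untreated rats (SD, n = 3 each).

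**Figure D4:**
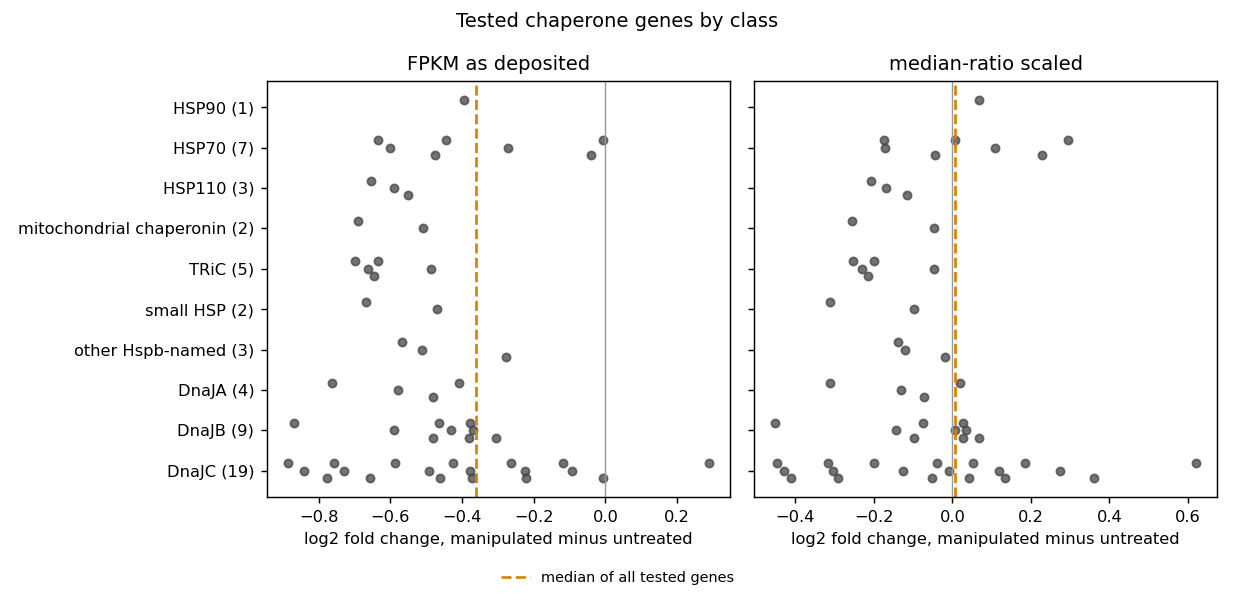
Log2 fold change, manipulated minus untreated, of each of the 55 tested chaperone genes (points) by class, with the number of genes in brackets, as deposited (left) and after median-ratio scaling (right), and the median of all tested genes as a dashed line. As deposited 54 genes lie below 0 around a genome-wide median of -0.36. After scaling 36 lie below 0 and 19 above, with Dnajb4 lowest and Dnajc17 highest.

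The DnaJA and DnaJB genes are the general partners of HSP70. Dnaja1, a main cytosolic partner, had 25.3, 31.7 and 17.8 FPKM in manipulated rats and 42.0, 39.99 and 43.9 FPKM in untreated rats. The untreated values were close together and all above the manipulated ones, with a log2 fold change of -0.76 (SE 0.30, limma adjusted p = 0.326), or -0.31 with scaling. Dnaja2 averaged 19.4 ± 4.97 FPKM in manipulated and 29.1 ± 5.40 FPKM in untreated rats (SD, n = 3 each), and Dnaja3, the mitochondrial partner, 7.02 ± 1.72 and 10.0 ± 0.848 FPKM. Dnajb4 had 10.3, 8.37 and 4.25 FPKM in manipulated rats and 17.9, 10.9 and 14.0 FPKM in untreated rats. Its groups were apart as deposited (-0.87, SE 0.34, limma adjusted p = 0.326) and with scaling (-0.45). Dnajb1, a heat-inducible partner, had 4.58 to 6.55 FPKM in manipulated and 5.99 to 8.76 FPKM in untreated rats and lay at 0.03 with scaling. Dnajb2, a neuronal co-chaperone that guides clients to the proteasome, had 20.04, 21.8 and 15.9 FPKM in manipulated rats and 31.0, 22.0 and 36.6 FPKM in untreated rats, while Dnajb6, a suppressor of protein aggregation, had 13.5, 19.5 and 8.69 FPKM against 20.2, 14.2 and 20.8 FPKM.

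Among DnaJC genes, Dnajc19 and Dnajc12 had the smallest unadjusted p of the tested members. Dnajc19, a part of the mitochondrial protein import motor (chromosome 2, 120503974 to 120531782), had 8.61, 14.2 and 12.2 FPKM in manipulated rats and 23.6, 23.4 and 19.2 FPKM in untreated rats. Groups and deposited intervals stood apart, and the log2 fold change was -0.89 (SE 0.28, adjusted p = 0.310 in limma). With scaling it was -0.45, and the groups overlapped. Dnajc12, a partner of the enzymes that hydroxylate aromatic amino acids, which monoaminergic neurons use (chromosome 20, 26893016 to 26937774), had 3.29, 3.58 and 1.93 FPKM in manipulated rats and 6.96, 4.15 and 6.05 FPKM in untreated rats. Its log2 fold change was -0.78 (SE 0.26, adjusted p = 0.310 in limma). With scaling the values were 3.48, 3.64 and 2.95 in manipulated and 5.18, 4.33 and 4.85 in untreated rats, with a log2 fold change of -0.41, a p of 0.00874 in limma and an adjusted p of 0.260. Its row differed 2.24 times in span between libraries. As deposited, the sum of the thalamic and hypothalamic markers lay lower in each manipulated library, as given above. With scaling these sums overlapped, at 132 in manipulated replicate 6 against 112 in untreated replicate 1. The part of these markers in the Dnajc12 value was not tested.

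The vesicle genes of the class had unequal values. Dnajc6, auxilin, which recruits HSPA8 to clathrin-coated vesicles in neurons, had 15.0, 15.2 and 9.32 FPKM in manipulated rats and 26.4, 18.9 and 21.4 FPKM in untreated rats. The groups did not overlap, and the log2 fold change was -0.73 (SE 0.29, limma adjusted p = 0.326). Dnajc5, cysteine string protein of synaptic vesicles, had 30.1, 31.1 and 19.9 FPKM in manipulated rats and 34.1, 34.0 and 28.4 FPKM in untreated rats, which overlapped, with -0.26, or -0.065 without manipulated replicate 6. With scaling Dnajc6 lay at -0.29 and Dnajc5 at 0.19. The ratio Dnajc6/Dnajc5 was 0.499, 0.489 and 0.469 in manipulated rats and 0.774, 0.556 and 0.754 in untreated rats, which did not overlap. Dnajc7, which binds both HSP70 and HSP90, had 13.8, 18.1 and 9.37 FPKM in manipulated and 26.6, 18.3 and 25.6 FPKM in untreated rats. Dnajc13, an endosomal protein, averaged 2.24 ± 0.752 and 3.24 ± 1.35 FPKM in manipulated and untreated rats (SD, n = 3 each).

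Several DnaJC values rested on a single library. Dnajc11, which sits with the mitochondrial inner membrane organising complex, had 6.23, 6.79 and 6.32 FPKM in manipulated rats and 8.95, 23.1 and 8.91 FPKM in untreated rats, and the log2 fold change of -0.84 was -0.42 without untreated replicate 2. Dnajc17 was the sole tested member with a log2 fold change above 0 as deposited, with 17.2 FPKM in manipulated replicate 4, whose deposited interval ran from 10.3 to 24.1 FPKM. The other manipulated libraries had 2.47 and 1.31 FPKM and the untreated ones 4.03, 2.74 and 3.25 FPKM, so that its log2 fold change of 0.29 was -0.60 without that library. Dnajc16 had 4.88, 4.21 and 2.83 FPKM in manipulated and 4.49, 3.44 and 3.87 FPKM in untreated rats. With scaling it had 5.16, 4.27 and 4.33 in manipulated and 3.34, 3.59 and 3.10 in untreated rats, a log2 fold change of 0.36, with a p of 0.0126 in limma and an adjusted p of 0.297. It was named after its values were seen, and its row differed 2.07 times in span. Dnajc1 (3.15, 3.21 and 3.11 FPKM in manipulated, 6.67, 3.21 and 6.51 FPKM in untreated rats) did not overlap between groups, but untreated replicate 2 lay within rounding of manipulated replicate 5. Dnajc24, which serves the modification of elongation factor 2, averaged 2.46 ± 0.604 and 4.504 ± 1.39 FPKM, and Dnajc15, a mitochondrial import protein, 7.82 ± 1.69 and 10.8 ± 1.58 FPKM, both without overlap in manipulated and untreated rats (SD, n = 3 each). With scaling the groups of both overlapped, at a log2 fold change of -0.30 for Dnajc24 and -0.0089 for Dnajc15.

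The genes that share rows are given by those rows. Dnajc8, a splicing-associated gene that holds Mir3583, had 16.3, 19.1 and 8.51 FPKM in manipulated rats and 20.001, 16.6 and 26.3 FPKM in untreated rats. Cct3 and Cct6a shared a row in some libraries, with 8.15 to 16.0 and 8.20 to 13.2 FPKM in manipulated and 11.8 to 20.04 and 13.4 to 18.7 FPKM in untreated rats. The row of Dnajc4 was joined with Vegfb in 4 libraries, that of Dnajc14 with Sarnp in untreated replicate 1, which gave 24.8 FPKM there against 2.18 to 5.28 FPKM in the other 5 libraries, and that of Dnajc9 with Ecd in untreated replicate 2. By these rows Dnajc4 had 3.70 to 7.44 FPKM in manipulated and 9.24 to 18.2 FPKM in untreated rats. Dnajc9 had 2.32 to 4.40 FPKM in manipulated and 5.01 to 8.04 FPKM in untreated rats. Dnajc18 had 4.76 to 8.13 FPKM in manipulated and 7.96 to 8.41 FPKM in untreated rats, and Cct6b lay between 0.109 and 0.218 FPKM in the 5 libraries where it stood alone. With all rows that name a gene summed, 67 members were tested and 0 passed, against 0.187% of all 13338 genes. The 13 members below the filter were Cct8l1, Dnajb3, Dnajb7, Dnajb8, Dnajb13, Dnajc5b, Dnajc5g, Dnajc22, Hspa1l, Hspb2, Hspb3, Hspb7 and Hspb9, and none had groups that stood apart. Of these Dnajc5g was listed at 0 in all libraries, and Dnajb13, a gene of motile cilia, had 0.374, 0.665 and 0.309 FPKM in manipulated and 1.26, 0.919 and 0.550 FPKM in untreated rats, while ependymal markers summed to 10.9 to 11.4 FPKM in manipulated and 6.03 to 11.6 FPKM in untreated rats.

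The ER members and the genes with heat shock elements are set side by side here. Among tested genes, the 2 with the ER stress element had higher scaled log2 fold changes than the 6 with the 3-unit element. Other ER members overlapped with those 6. Tested genes with only a 2-unit heat shock element, GAANNTTC or TTCNNGAA, lay on both sides of 0 with scaling. They ran from -0.31 for Hspb1 to 0.30 for Hspa2, a range that held both genes with the ER stress element. Hspa5, BiP, the HSP70 of the ER, had 23.6, 27.6 and 18.2 FPKM in manipulated rats and 39.4, 26.4 and 29.9 FPKM in untreated rats, and its log2 fold change of -0.44 was 0.0059 with scaling. Dnajc3, an ER co-chaperone, had 4.94, 4.35 and 2.68 FPKM in manipulated rats and 5.22, 3.87 and 3.68 FPKM in untreated rats, and lay at 0.27 with scaling. Hsp90b1, the HSP90 of the ER, shared its row with a clone-named gene, and that row had 27.8, 34.2 and 18.1 FPKM in manipulated and 39.3, 27.5 and 33.6 FPKM in untreated rats. These 3 are the genes with the ER stress element shown above. The 6 genes with a 3-unit heat shock element had scaled log2 fold changes of -0.31 for Dnaja1, -0.26 for Hspd1, -0.23 for Cct4, -0.21 for Hsph1, -0.17 for Hspa8 and -0.05 for Hspe1, each with an adjusted p above the threshold in limma. Over the 9 tested heat-inducible members of the list made for this work the scaled median was -0.21, and over the 11 tested ER members it was 0.03, while as deposited these medians were -0.65 and -0.37. The list of 8 tested mitochondrial members had -0.49 and -0.06, and the 7 of vesicles and synapses -0.59 and -0.14, as deposited and with scaling. Single ER members such as Dnajc1 (-0.20) and Dnajb11 (-0.10) lay among the genes with the 3-unit element, and the difference between these lists was not tested.

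Ratios within a library give the balance of chaperones free of any scaling between libraries. The ratio Hsp90ab1/Hspa8 was 1.80, 1.90 and 1.88 in manipulated rats and 1.44, 1.68 and 1.59 in untreated rats. Every manipulated library lay above every untreated one, a difference of 0.289, with an exact two-sided permutation p of 0.1, which is the lowest possible with groups of 3, and 0.267 adjusted over 8 ratios. The ratios Hspa9/Hspd1 (difference 0.144) and Dnajc6/Dnajc5 (difference -0.209) had the same exact permutation p of 0.1 and adjusted value of 0.267. The other 5 ratios overlapped, with Hsph1/Hspa8 at 0.330 ± 0.0202 in manipulated and 0.339 ± 0.0182 in untreated rats, and Dnaja1/Hspa8 at 0.429 ± 0.0358 and 0.478 ± 0.0769 (SD, n = 3 each). The ratio Hspa5/Hspa8 was 0.362, 0.397 and 0.455 in manipulated and 0.375, 0.364 and 0.327 in untreated rats. The ratios were chosen after the values were seen.

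**Figure D5:**
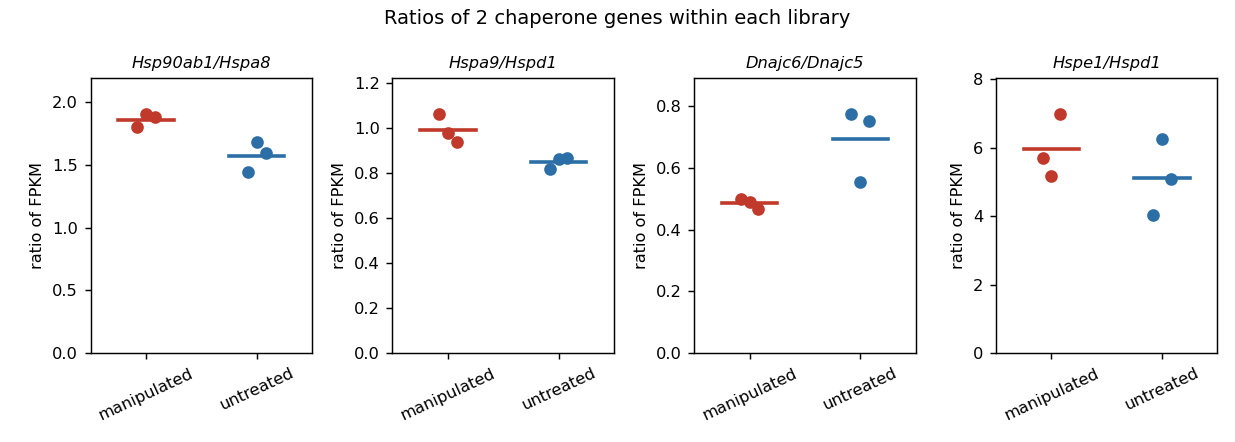
Ratio of the FPKM of 2 chaperone genes within each library for 4 of the 8 ratios computed, with manipulated rats in red (left), untreated rats in blue (right) and bars at the means. The groups stand apart for Hsp90ab1/Hspa8, Hspa9/Hspd1 and Dnajc6/Dnajc5, and overlap for Hspe1/Hspd1.

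The regulators and helpers around these genes gave no call either. For the counts below, 86.9% of all tested genes were lower as deposited. At an unadjusted p under 0.05 in limma 13.5% were lower, and 0.363% passed the adjusted p. Of 21 tested heat shock factor genes and HSP70 and HSP90 cofactors, 20 were lower as deposited, with a median of -0.40, or -0.06 with scaling, and 0 passed the adjusted p, with 2 under an unadjusted p of 0.05. Hsf1, the master regulator, named after its values were seen, had 5.40, 3.64 and 2.69 FPKM in manipulated and 3.51, 4.10 and 5.30 FPKM in untreated rats. The HSP90-binding cyclophilin gene Ppid averaged 7.89 ± 1.47 FPKM in manipulated and 14.4 ± 3.67 FPKM in untreated rats (SD, n = 3 each), and the HSP90 cofactor gene Chordc1 3.00 ± 0.843 and 4.95 ± 1.21 FPKM. Of 17 other tested chaperone genes 17 were lower, with a median of -0.38, or 0.0080 with scaling. Among them Cryab, the small heat shock protein of glia that also belongs to mature oligodendrocytes, had 12.8, 19.4 and 15.4 FPKM in manipulated rats and 22.4, 38.5 and 67.5 FPKM in untreated rats. Its groups did not overlap, untreated replicate 3 was far above the others, and the log2 fold change was -1.26 (SE 0.40, limma adjusted p = 0.310). Of 11 prefoldin and tubulin-folding genes 10 were lower, and Tbcb (6.46 ± 1.33 and 11.4 ± 3.27 FPKM), Tbcd and Pfdn1 had an unadjusted p under 0.05. The median of this list was -0.53, or -0.10 with scaling. Of 16 tested genes of the unfolded protein response 15 were lower, with a median of -0.37, or 0.04 with scaling. There Creld2, a secreted ER stress gene, averaged 2.17 ± 0.360 FPKM in manipulated and 4.68 ± 0.626 FPKM in untreated rats (SD, n = 3 each), with a log2 fold change of -0.84 (SE 0.21, adjusted p = 0.225 in limma), and Ddit3, CHOP, 4.08 ± 0.786 and 7.03 ± 1.26 FPKM. Pdia6, an ER disulfide isomerase gene, had 14.3, 16.8 and 9.99 FPKM in manipulated rats and 23.1, 19.9 and 22.1 FPKM in untreated rats. None of the 4 lists held a gene past the adjusted p in the fit without weights. With weights per library 8 of their 65 tested genes passed it in limma, all lower, against 8.98% of all genes, namely Creld2, Cryab, Ddit3, Pfdn1, Ppid, Sgta, Tbcb and Tbcd, with adjusted p from 0.0280 to 0.0486.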

How the data were processed

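The deposited values are FPKM, which the authors made from alignments by STAR 2.7.3a with Cufflinks (Rnor_6.0), as the submitters' processing notes list them. Each library has a gene table with FPKM, interval bounds and a status, per the file headers. Read totals, strandedness and annotation release were not given in the sources used here. Because FPKM divides by the library's own total, abundant transcripts lower all others. Without strand, overlapping genes on opposite strands cannot be told apart.

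Single-name rows were summed per symbol. Of 30076 symbols, 3254 shared a row in at least 1 library, 5 others had a failed estimate and 32 others lacked a row in a library. These were left out, and 10731 of the remaining 26785 had a mean of at least 1 FPKM over 6 libraries and were tested with limma 3.58.1 (R 4.3.3) on log2(FPKM + 1), with a variance trend and without covariates. Median-ratio scaling factors came from 14248 genes above 0 in all libraries. On simulated data the fit returned the changes put in at their size, but its adjusted p passed none of the smaller ones, which exceeded the log2 fold change of every tested member, so the absence of calls does not show equal levels. Implied fragment numbers come from the interval widths of unnamed loci and are no read totals. Start positions count from 1.

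The members and gene lists were chosen with earlier results of these data known. Genes named are the 2 most abundant of each class, those whose groups do not overlap or whose unadjusted p is under 0.05, and up to 4 genes of each related list with such a p. Others were named after their values were seen. Ratios were compared by an exact permutation test of their log2 values over the libraries. Labels do not pair the rats. Python 3.11.15, pandas 2.3.3 and matplotlib 3.10.9 made tables and figures.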

Additional observations from a re-analysis of the deposited data

How the results depend on the processing

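No paired analysis was possible because the replicate numbers of the groups are not shared. The number of all genes past the adjusted p, 39, was 22 with no filter on low values, 82 with a robust prior, 964 when libraries were weighted and 25 with rows naming several genes kept, and ran from 38 to 73 when 1 library was left out, the highest without untreated replicate 2. Members past it, 0, were 5 with weights per library, Dnajc19, Dnajc1, Dnajc12, Hspb1 and Hspbp1, against 8.98% of all genes, where manipulated replicate 4 had a weight of 6.15 and manipulated replicate 6 of 0.234, and 0 in every other setting and without any library. Members with an unadjusted p under 0.05, 9, were 15 with no filter (22.4%, against 12.7% of all genes), 4 with median-ratio scaling (7.27% against 11.1%) and 34 with weights (61.8% against 40.3%), where 16.4% stood against 15.1% before. They ran from 2 without manipulated replicate 6 (3.64% against 7.88%) to 19 without untreated replicate 2 (34.5% against 25.6%), with 3 without manipulated replicate 4, untreated replicate 1 or untreated replicate 3. Members lower without overlap, 21, were 9 with scaling and 21 to 44 without 1 library, and a larger share of members than of all genes in each of these fits. The median of members, -0.48, was -0.074 with scaling and ran from -0.64 to -0.31 without 1 library. With scaling 18 members below 0 lay above it, among them, of the 44 genes followed through every setting, Dnajb6 (0.0060), Dnajc16 (0.36), Dnajc3 (0.27), Dnajc5 (0.19), Hsp90ab1 (0.068) and Hspa5 (0.0059), and with weights the sign turned for Dnajc16 (0.19) and Dnajc3 (0.17). Without 1 library the log2 fold change of Dnajc16 ran from -0.14 to 0.17, of Dnajc3 from -0.23 to 0.11 and of Dnajc17 from -0.60 to 0.88. Hspb8 lay at -0.25 without untreated replicate 3, Hspa5 at -0.29 without untreated replicate 1 and Dnajb6 at -0.69 without manipulated replicate 5. The difference in Hsp90ab1/Hspa8 ran from 0.225 to 0.342, in Hspa9/Hspd1 from 0.11 to 0.172 and in Dnajc6/Dnajc5 from -0.279 to -0.169. The cause of these shifts was not tested. FPKM tables give no counts, so depth behind single values is known only through the deposited intervals.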
